A study of Mus musculus with 10 samples.

Results

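Napb encodes beta-SNAP, the brain-enriched form of the adaptor that loads the ATPase NSF onto spent SNARE complexes. It was examined here with 7 genes of the machinery that fuses synaptic vesicles with the presynaptic membrane: Napa, Nsf, Snap25, Stx1a, Vamp2, Syt1 and Cplx1. Napb was chosen by its measured difference, a small rise seen in every trisomic library of the hippocampus set, so its genotype difference is described here without a test. The 7 partners were selected on function, with earlier results of these data known. These 8 genes were found by symbol among the 43629 genes of the count table, and all 8 passed the filter on low counts, as did 17237 genes in all.

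RNA from whole hippocampus of 10 mice, 5 per genotype, was sequenced as 1 library per mouse. Dp1Tyb mice carry the allele Dp(16Lipi-Zbtb21)1TybEmcf, an extra copy of the region of mouse chromosome 16 between Lipi and Zbtb21 that is orthologous to human chromosome 21, and the WT mice were littermates without it; all were male. The labels give both groups as 18 weeks old, slightly younger than the age in the study's methods, and on the C57BL/6J.129P2 strain background, after repeated backcrossing to C57BL/6J. The duplication is carried in every cell from conception, so the data do not separate developmental from adult differences, and 1 duplication strain stands for the trisomy. The study asked whether expression differs between the genotypes in domains along chromosomes. Summed over genes, the libraries held 18227684 to 43692270 counted reads.

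At the synapse, vesicular VAMP2 pairs with the plasma membrane proteins syntaxin 1 and SNAP25 in a helical SNARE bundle whose zippering drives the membranes together. Synaptotagmin 1 senses calcium and complexin 1 clamps and then assists the bundle, so that release is tied to the action potential. After fusion the bundle is taken apart by NSF with alpha-SNAP (Napa) or beta-SNAP (Napb), which frees the SNAREs for another round. None of these 8 genes, and none of the 93 genes of vesicle release and membrane fusion considered further on, lay in the duplicated region of chromosome 16.

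The disassembly genes contain the paralogue pair Napb and Napa, which differed in these libraries. The promoters of Napb and Napa are shown with that of Nsf, on which both proteins act, because the 3 genes share a role. Each is the RefSeq sequence on GRCm38.p6 from 250 bases before to 50 bases after the annotated start, read on the strand of the gene: chr2:148732371-148732670 on the minus strand for Napb, chr7:16098330-16098629 on the plus strand for Napa and chr11:103954007-103954306 on the minus strand for Nsf. Capitals mark every match, on either strand, to a GC box (GGGCGG or CCGCCC), a cAMP response element (TGACGTCA) or a CCAAT box (CCAAT or ATTGG).
Napb: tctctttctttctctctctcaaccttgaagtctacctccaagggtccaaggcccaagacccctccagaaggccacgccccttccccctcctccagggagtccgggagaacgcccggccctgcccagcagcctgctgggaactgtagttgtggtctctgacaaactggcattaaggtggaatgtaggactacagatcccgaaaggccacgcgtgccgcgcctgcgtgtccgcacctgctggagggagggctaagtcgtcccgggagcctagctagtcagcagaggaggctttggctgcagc
Napa: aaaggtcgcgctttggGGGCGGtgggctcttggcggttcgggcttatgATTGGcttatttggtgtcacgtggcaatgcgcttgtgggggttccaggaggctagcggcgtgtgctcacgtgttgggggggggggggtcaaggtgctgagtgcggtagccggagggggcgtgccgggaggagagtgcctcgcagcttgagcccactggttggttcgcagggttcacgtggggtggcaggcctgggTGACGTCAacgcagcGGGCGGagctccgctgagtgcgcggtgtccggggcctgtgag
Nsf: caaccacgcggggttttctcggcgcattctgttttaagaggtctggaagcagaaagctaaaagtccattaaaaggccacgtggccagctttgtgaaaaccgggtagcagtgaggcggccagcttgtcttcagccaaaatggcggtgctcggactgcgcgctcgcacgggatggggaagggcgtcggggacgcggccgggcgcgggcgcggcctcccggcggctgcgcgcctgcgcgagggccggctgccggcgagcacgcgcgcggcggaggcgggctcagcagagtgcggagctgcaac
The Napa window held 2 GC boxes, 1 cAMP response element and 1 CCAAT box, while those letters occurred in neither the Napb nor the Nsf window. Of 32817 mouse promoters of the same length, 35.6% held a GC box, 1.79% the cAMP response element and 37.4% a CCAAT box. A promoter entry was found for 6 of the 8 genes, and none was used for Snap25 or Vamp2. The Stx1a window held 3 GC boxes and the Cplx1 window 2. The Syt1 window at chr10:109010926-109011225 held 1 GC box and 2 CCAAT boxes, and the other Syt1 window held none of these letters. Whether such matches bear on the levels was not tested.

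Levels are given as CPM, the count of a gene in 1000000 counted reads of its library, with library totals adjusted by the TMM method of edgeR, which assumes that most genes do not differ. Napb (ENSMUSG00000027438, chr2:148693985-148732467, minus strand, GRCm38) lay at 529, 541, 556, 557 and 518 CPM in WT libraries 1 to 5. In Dp1Tyb libraries 1 to 5 it lay at 614, 632, 606, 647 and 584 CPM. Each Dp1Tyb library was above each WT library, and the gap between the groups, from 557 to 584 CPM, was wider than the group SDs. The mean was 540 ± 16.9 CPM in WT against 617 ± 24.2 CPM in Dp1Tyb (SD, n = 5), a difference of 14.2% or 0.19 ± 0.039 (SE) on the log2 scale. In bulk tissue, more cells of a type and more RNA of a gene per cell cannot be told apart. These values rested on 10254 to 26804 reads per library, and they are the contrast on which Napb was picked.

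Napa (ENSMUSG00000006024, chr7:16098458-16117975, plus strand), the broadly expressed alpha-SNAP, lay at 229, 232, 220, 225 and 221 CPM in WT. The Dp1Tyb libraries held 243, 225, 227, 225 and 226 CPM. Apart from the first Dp1Tyb library, the groups covered the same range. The log2 difference was 0.02 ± 0.033, adjusted p = 0.773 by the edgeR quasi-likelihood test with Benjamini-Hochberg adjustment over all 17237 genes, the test used for every adjusted p that follows.

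Nsf (ENSMUSG00000034187, chr11:103821782-103954056, minus strand), the ATPase itself, lay at 1219, 1253, 1204, 1265 and 1200 CPM in WT. In Dp1Tyb it lay at 1350, 1316, 1287, 1360 and 1297 CPM. The groups did not overlap. The mean went from 1228 ± 29.4 to 1322 ± 32.2 CPM (SD, n = 5), a log2 difference of 0.11 ± 0.039 with an edgeR adjusted p of 0.243, above the 0.05 used as the threshold for calling a gene. The DESeq2 alternative put Nsf past that threshold, with a log2 difference of 0.10 ± 0.032 and an adjusted p of 0.0421.

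**Figure D1:**
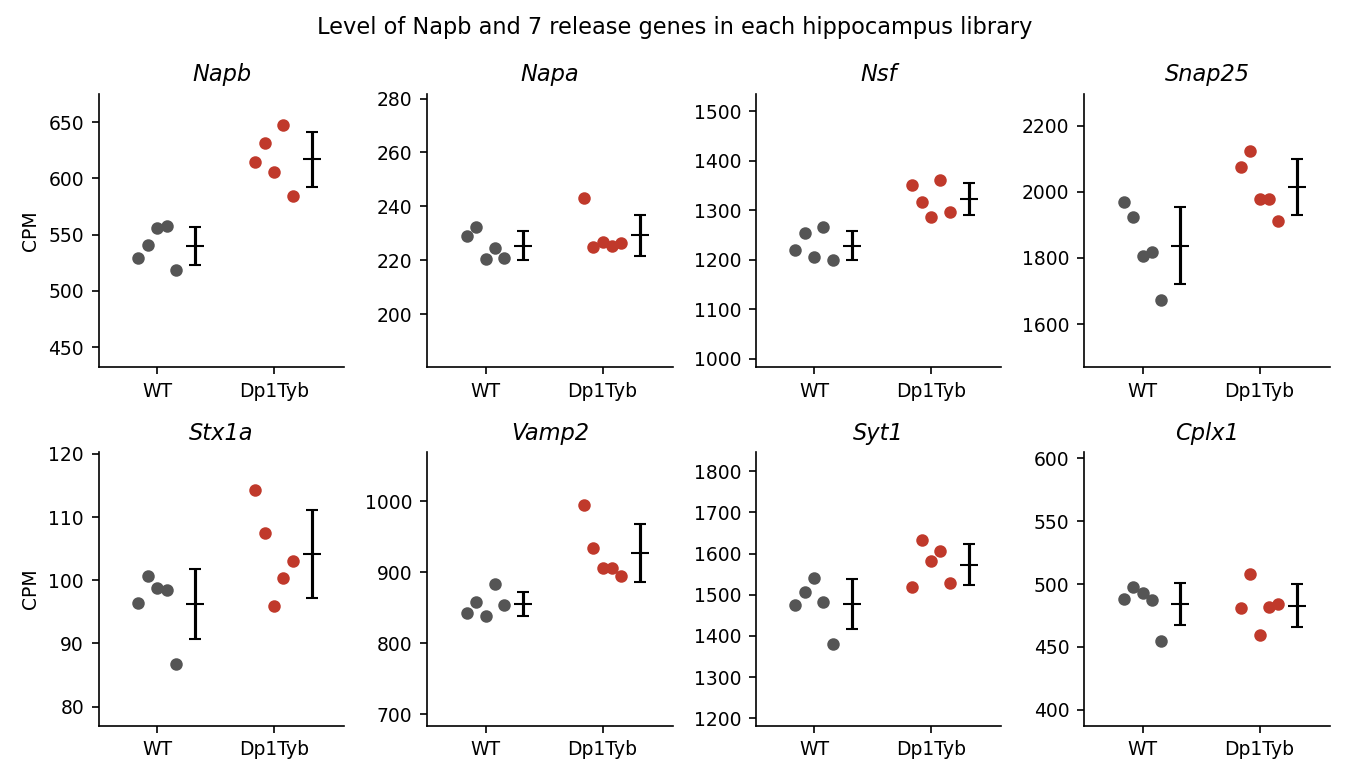
Level in CPM (vertical axes, which do not start at 0 and span the same fold range in each panel) of Napb and the 7 other genes in each of 5 WT (grey) and 5 Dp1Tyb (red) libraries; black marks give the mean and SD. The Dp1Tyb libraries lie wholly above the WT libraries for Napb, Nsf and Vamp2, and the groups share 1 range for Cplx1.

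Among the SNARE proteins, Snap25 (ENSMUSG00000027273, chr2:136713453-136782428, plus strand), which anchors the bundle at the plasma membrane, lay at 1970, 1923, 1805, 1819 and 1672 CPM in WT. The Dp1Tyb libraries held 2074, 2124, 1980, 1978 and 1913 CPM. In 4 of 5 Dp1Tyb libraries the level was above every WT library, and the low WT value came from WT 5. The log2 difference was 0.13 ± 0.053 (adjusted p = 0.286, edgeR).

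Vamp2 (ENSMUSG00000020894, chr11:69088490-69092384, plus strand), the vesicle SNARE, lay at 842, 859, 839, 883 and 853 CPM in WT. In Dp1Tyb it lay at 994, 934, 905, 906 and 895 CPM. The groups did not overlap, and Dp1Tyb 1 stood highest. The mean went from 855 ± 17.4 to 927 ± 40.4 CPM (SD, n = 5), a log2 difference of 0.12 ± 0.040 with an edgeR adjusted p of 0.222.

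Stx1a (ENSMUSG00000007207, chr5:135023482-135051100, plus strand), a syntaxin of the presynaptic membrane, lay at 96.4, 101, 98.8, 98.5 and 86.8 CPM in WT. In Dp1Tyb it lay at 114, 107, 95.9, 100.4 and 103 CPM. In 3 of 5 Dp1Tyb libraries it was above every WT library. The log2 difference was 0.12 ± 0.053 (adjusted p = 0.343, edgeR).

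The calcium sensor Syt1 (ENSMUSG00000035864, chr10:108497650-109010982, minus strand) lay at 1476, 1508, 1540, 1483 and 1380 CPM in WT. The Dp1Tyb libraries held 1518, 1632, 1581, 1606 and 1529 CPM. The groups overlapped, with 3 of 5 Dp1Tyb libraries above every WT library. The log2 difference was 0.09 ± 0.044 (adjusted p = 0.370, edgeR).

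Cplx1 (ENSMUSG00000033615, chr5:108518554-108550024, minus strand), the complexin that binds the assembled bundle, lay at 488, 497, 493, 487 and 455 CPM in WT. In Dp1Tyb it lay at 481, 508, 459, 482 and 484 CPM. The groups covered the same range, with means of 484 ± 16.7 and 483 ± 17.2 CPM (SD, n = 5). The log2 difference was -0.0040 ± 0.038 (adjusted p = 0.974, edgeR), and its sign turned when WT 2, WT 3 or Dp1Tyb 3 was left out.

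Of the 7 partners, 6 had a higher mean in Dp1Tyb and 1 a lower mean, and none was called by edgeR, against 1.11% of all tested genes. At an unadjusted p under 0.05 there were 4 of 7 (Nsf, Snap25, Stx1a and Vamp2), all higher, against 7.97% of all tested genes that were higher at that level. The groups did not overlap for 2 of 7 (Nsf and Vamp2), against 2.56% of all tested genes with Dp1Tyb wholly above WT. The median log2 difference was 0.11 over the partners and -0.0041 over all tested genes. All 7 partners had a mean over the 10 libraries of at least 100 CPM, where small differences are measured more precisely. Stx1a passed that cut only through Dp1Tyb, with means of 96.2 CPM in WT and 104 CPM in Dp1Tyb. The 2281 genes that passed the same cut are a closer background, added after the values were seen. Of these 2281 genes, 20.0% were higher at an unadjusted p under 0.05 and 7.06% had Dp1Tyb wholly above WT. Their median log2 difference was 0.03. DESeq2 called 1 of the 7 partners, Nsf, and with WT 5 left out the partners' median was 0.08.

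For most of the 8 genes the lowest WT value came from 1 animal. WT 5 was the lowest WT library for 6 of the 8 genes (Napb, Nsf, Snap25, Stx1a, Syt1 and Cplx1), and WT 3 was the lowest for Napa and Vamp2. WT 5 lay close to the next WT library for Napb (518 against 529 CPM) and Nsf (1200 against 1204 CPM). Among Dp1Tyb libraries, Dp1Tyb 3 was lowest for 3 genes and Dp1Tyb 5 for 3 others. Leaving out each library in turn kept the Napb log2 difference between 0.17 and 0.21.

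To compare levels between genes, CPM were divided by the length of all annotated exons of the gene in kilobases (RPKM). In WT, Snap25 was the most abundant of the 8 at 271 ± 17.1 RPKM (SD, n = 5), followed by Vamp2 at 225 ± 4.58 and Cplx1 at 221 ± 7.65 RPKM, whose ranges overlapped. Syt1 came next at 177 ± 7.17 RPKM and Nsf at 147 ± 3.53 RPKM. Napb at 76.6 ± 2.39, Napa at 59.6 ± 1.38 and Stx1a at 36.1 ± 2.07 RPKM formed the lower end. Outside the pair Vamp2 and Cplx1, the WT ranges of neighbours in this order did not overlap. Exon length counts every annotated isoform, so a gene with a long, rarely used exon has an RPKM that is too low.

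The role groups were then widened to 93 genes in 7 lists, also chosen with earlier results of these data known. Of these genes, 90 besides Napb were tested. Cplx4 was too low to test, and Vamp7 was listed at 0 in every library. Of these 90, 64 had a higher mean in Dp1Tyb and 26 a lower one, with a median log2 difference of 0.06. Called genes numbered 2, both higher, namely Vamp1 and Cadps2, against 0.870% of tested genes called higher, and none was called lower against 0.238%. At an unadjusted p under 0.05, 26 were higher and 7 lower, against 7.97% and 6.40% of all tested genes. The groups did not overlap in 11 genes that were higher, against 2.56%, and in 2 that were lower, Syt5 and Stx5a, against 1.12%. Of all tested genes, 48.7% had a higher mean in Dp1Tyb. Restricted to the 44 listed genes at a mean of at least 100 CPM, 36 were higher, 22 of them at an unadjusted p under 0.05, 10 with no overlap, and the median was 0.10. Of the 2281 genes at that level in the whole table, 63.0% were higher, 20.0% were higher at an unadjusted p under 0.05 and 7.06% were higher with no overlap, and the median was 0.03. Cadps2 and Stx7, like Stx1a, reached that level only through Dp1Tyb, with WT means of 97.0 and 98.5 CPM. The 46 listed genes below that level had a median of 0.01, with 28 higher and 18 lower.

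**Figure D2:**
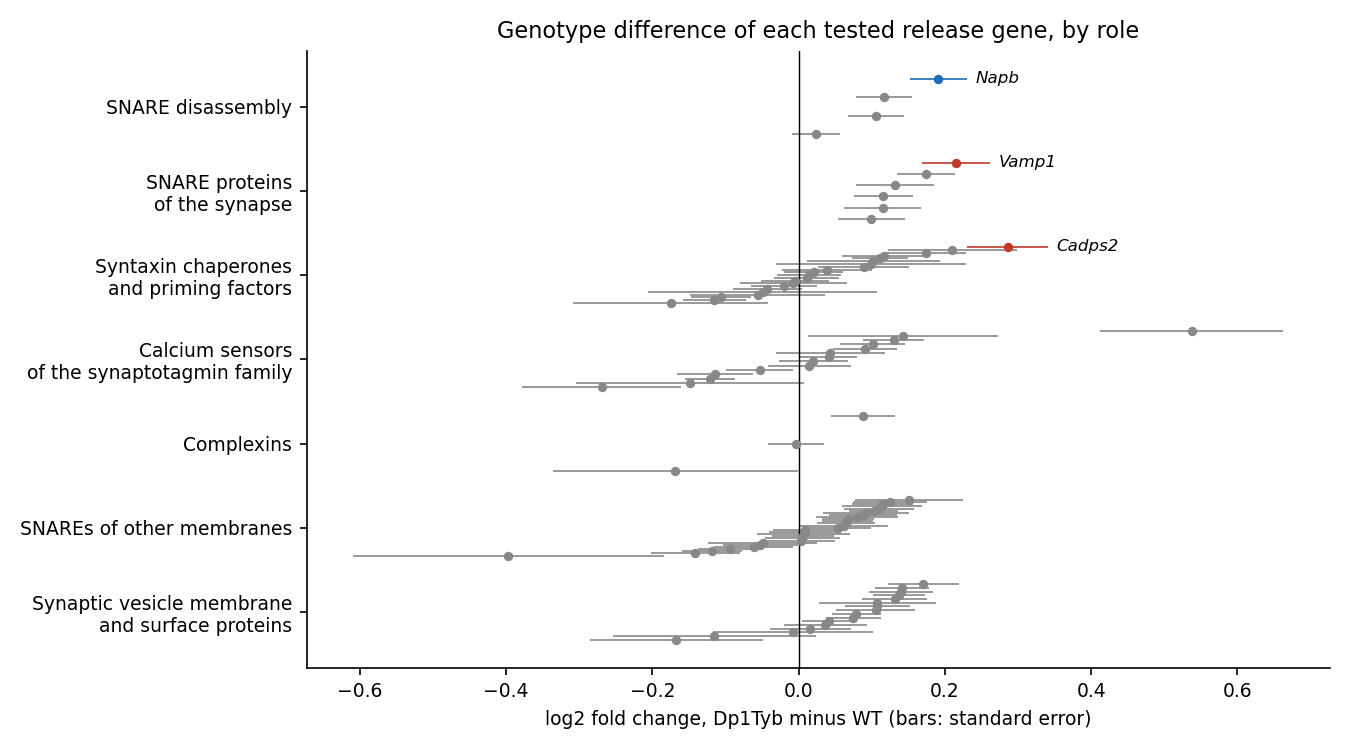
Log2 fold change, Dp1Tyb minus WT, with its standard error (horizontal axis) of each tested gene, grouped by role (vertical axis); red marks genes called by edgeR, blue marks Napb, which was chosen on this contrast, and grey marks the rest. All points of the disassembly and synaptic SNARE groups lie to the right of 0, while priming factors and synaptotagmins lie on both sides.

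In the disassembly list, all 3 genes counted besides Napb had a higher mean in Dp1Tyb and none was called. Of all tested genes, 48.7% were higher and 1.11% were called, and 63.0% were higher among genes of at least 100 CPM. Napg, which encodes gamma-SNAP and was singled out after its values were seen, had a mean of 182 ± 4.01 CPM in WT against 197 ± 10.1 CPM in Dp1Tyb (SD, n = 5), a log2 difference of 0.12 ± 0.038 (adjusted p = 0.186, edgeR). The Napb and Napa counts of the same library can be set against each other without any scaling: Napb reads per Napa read were 2.31 to 2.52 in WT and 2.53 to 2.88 in Dp1Tyb, a log2 difference of 0.17 that follows from the choice of Napb and was not tested.

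All 6 SNARE proteins of the synapse had a higher mean in Dp1Tyb, each with an unadjusted p under 0.05. Of all genes at a mean of at least 100 CPM, 20.0% were higher at that level. All 6 lay in that set, Stx1a only through its Dp1Tyb mean. Vamp1, the vesicle SNARE of many brainstem and motor terminals, rose from 143 ± 9.38 to 167 ± 6.32 CPM (SD, n = 5), a log2 difference of 0.22 ± 0.047 with an edgeR adjusted p of 0.0447. Its WT libraries held 142, 153, 151, 143 and 129 CPM and its Dp1Tyb libraries 170, 173, 165, 156 and 168 CPM, with no overlap. The call held only without WT 2 or without Dp1Tyb 4 when 1 library at a time was left out, and was lost in the other 8 of 10 fits, with adjusted p up to 0.124. Snap47, singled out after its values were seen, had a log2 difference of 0.17 ± 0.040 (adjusted p = 0.0540, edgeR) with no overlap between the groups.

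Syntaxin chaperones and priming factors, which ready vesicles for fusion, were split, with 12 higher and 9 lower and a median log2 difference of 0.01. Of all tested genes, 48.7% were higher and 0.870% were called higher. Cadps2, a priming factor for dense-core and synaptic vesicles, rose from 97.0 ± 4.52 to 118 ± 9.85 CPM (SD, n = 5), a log2 difference of 0.29 ± 0.056 with an edgeR adjusted p of 0.0252. Its WT libraries held 98.6, 96.8, 99.5, 101 and 89.4 CPM and its Dp1Tyb libraries 113, 117, 125, 131 and 106 CPM, again with no overlap. That call was lost in 6 of 10 fits that left out 1 library (WT 1, WT 2, WT 4, WT 5, Dp1Tyb 2 or Dp1Tyb 3), with adjusted p up to 0.0773.

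Unc13a, the Munc13 that opens syntaxin, had 524 ± 27.3 CPM in WT against 508 ± 26.7 CPM in Dp1Tyb (SD, n = 5; adjusted p = 0.710, edgeR). Rab3c, a vesicle GTPase, had 528 ± 27.0 and 596 ± 45.4 CPM (SD, n = 5), a log2 difference of 0.17 ± 0.055 (adjusted p = 0.170, edgeR). For both genes the groups overlapped. The exons of Unc13a overlap a gene on the opposite strand by 495 bases, and those of Syt7, Syn2 and Syp, described next, by 384, 90 and 875 bases; reads there cannot be assigned without the strand setting of the count.

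The synaptotagmins, which include fast, slow and calcium-independent sensors, were also mixed in direction, with 9 higher and 5 lower and none called. At an unadjusted p under 0.05 there were 3 in each direction. Of all tested genes, 48.7% were higher, 1.11% were called, and 7.97% were higher and 6.40% lower at that unadjusted p. Syt11, a member that does not bind calcium, had 802 ± 35.0 CPM in WT against 877 ± 25.5 CPM in Dp1Tyb (SD, n = 5), with no overlap and a log2 difference of 0.13 ± 0.042 (adjusted p = 0.177, edgeR). Syt7, the high-affinity sensor of asynchronous release, had 428 ± 21.0 and 396 ± 29.2 CPM (SD, n = 5), a log2 difference of -0.11 ± 0.052 (adjusted p = 0.339, edgeR). Complexins did not share a direction. Cplx2, the more abundant complexin, had 1583 ± 73.0 and 1682 ± 31.0 CPM (SD, n = 5; adjusted p = 0.382, edgeR), and Cplx3, a complexin of ribbon synapses, had 6.70 ± 1.54 and 5.95 ± 1.14 CPM (adjusted p = 0.671, edgeR).

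Vesicle membrane and surface proteins had 13 of 16 genes higher, 7 of them at an unadjusted p under 0.05, none called, and a median log2 difference of 0.09. Over all tested genes 48.7% were higher and 7.97% were higher at that level, and among genes of at least 100 CPM these shares were 63.0% and 20.0%. Syn2, a synapsin that tethers reserve vesicles, had 702 ± 13.2 CPM in WT against 772 ± 20.6 CPM in Dp1Tyb (SD, n = 5), with no overlap, a log2 difference of 0.14 ± 0.035 and an edgeR adjusted p of 0.0886. Syp, the abundant vesicle protein synaptophysin, had 666 ± 24.3 and 701 ± 14.9 CPM (adjusted p = 0.386, edgeR), and Slc17a7, the vesicular glutamate transporter of excitatory neurons, had 1274 ± 62.8 and 1306 ± 96.6 CPM (adjusted p = 0.799, edgeR).

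SNAREs listed for other membranes were counted in the same way. Of 27 tested, 20 were higher and 7 lower, none was called, 4 were higher and 2 lower at an unadjusted p under 0.05, and the median log2 difference was 0.05. Over all tested genes, 48.7% were higher, and 7.97% were higher and 6.40% lower at that level. Of the 3 most abundant, the endosomal syntaxin Stx12 had 140 ± 1.79 CPM in WT against 151 ± 5.89 CPM in Dp1Tyb (SD, n = 5; adjusted p = 0.191, edgeR) with no overlap. The trans-Golgi syntaxin Stx16 had 121 ± 7.07 and 122 ± 4.10 CPM (adjusted p = 0.946, edgeR), and the late endosomal Stx7 had 98.5 ± 2.30 and 107 ± 6.03 CPM (adjusted p = 0.242, edgeR).

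Ratios of paralogue counts within a library asked whether 1 member of a pair shifted against the other, which needs no scaling between libraries. By a two-sided exact permutation test with adjustment over 4 pairs, the ratio of Snap23, the SNAP25 relative used in most other cells, to Snap25 differed. Snap23 reads per Snap25 read were 0.0108, 0.00947, 0.0116, 0.0102 and 0.0122 in WT and 0.00908, 0.00868, 0.00893, 0.00873 and 0.00938 in Dp1Tyb, with no overlap. The log2 difference was -0.27, with an exact p = 0.00794, the smallest that 5 against 5 libraries allow, and an adjusted p = 0.0317. Both genes moved the ratio the same way, since Snap23 had a log2 difference of -0.14 ± 0.061 and Snap25 one of 0.13 ± 0.053, and neither was called by edgeR. The adjusted p by the exact permutation test was 0.0635 without any 1 of the Dp1Tyb libraries and 0.0317 without any 1 of the WT libraries. Over those fits the log2 difference stayed between -0.32 and -0.23.

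The ratios among vesicle SNAREs and complexins did not pass. The log2 ratio of Vamp1 to Vamp2 differed by 0.10 (exact permutation adjusted p = 0.138), and that of Cplx2 to Cplx1 by 0.09 (exact permutation adjusted p = 0.138). Without WT 5, Cplx2 to Cplx1 differed by 0.13 with an exact permutation adjusted p = 0.0476.

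**Figure D3:**
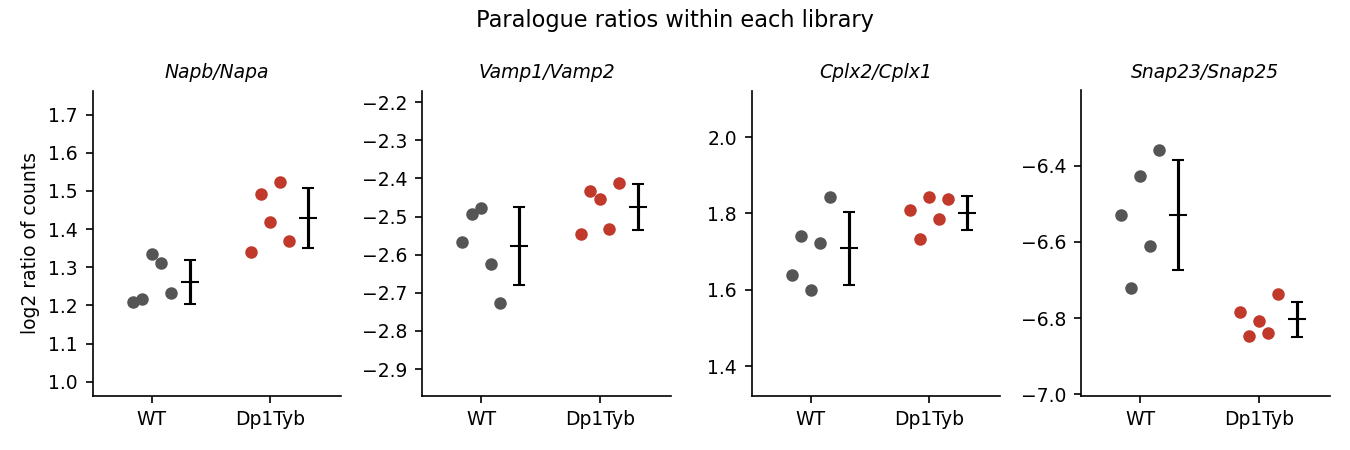
Log2 ratio of the counts of 4 paralogue pairs (vertical axes, each spanning the same log2 range) in each WT (grey) and Dp1Tyb (red) library, with mean and SD in black. The groups separate for Napb to Napa, where Napb was chosen on this contrast, and for Snap23 to Snap25, and overlap for the other pairs.

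Hippocampal neurons hold most of the synaptic release machinery, so marker levels are given beside these differences. Summed over 8 neuronal markers that are not release genes (Rbfox3, Map2, Tubb3, Nefl, Nefm, Eno2, Elavl2 and Thy1), the level was 3581 to 3885 CPM in WT against 3852 to 4048 CPM in Dp1Tyb. Of the 8 markers, 7 were higher, 1 was called (Elavl2) and none was at 0 in any library. The 1 lower marker was Rbfox3, with a log2 difference of -0.045 ± 0.036 (edgeR adjusted p = 0.591). Over all tested genes, 48.7% were higher and 0.870% were called higher, and 63.0% were higher among genes of at least 100 CPM. The sum of 6 interneuron markers was 620 to 702 CPM in WT against 716 to 816 CPM in Dp1Tyb, with no overlap, and 4 of the 6 were higher and 2 lower. Gad1, the most abundant of the 6, had 321 ± 20.8 and 372 ± 22.2 CPM (SD, n = 5; edgeR adjusted p = 0.0765). Gad2, like Gad1 a GABA-synthesising enzyme, rose from 146 ± 12.6 to 186 ± 19.8 CPM (SD, n = 5; edgeR adjusted p = 0.0410). Vip, a peptide of interneurons, rose from 14.3 ± 1.36 to 19.2 ± 1.64 CPM (edgeR adjusted p = 0.0209). Sst and Pvalb, which mark other interneurons, had log2 differences of -0.05 ± 0.069 and -0.16 ± 0.11 (edgeR adjusted p = 0.774 and 0.525). Of 8 markers of hippocampal principal neurons, none was at 0 in any library. No other tissue was compared, so that does not set the hippocampus apart from other regions. Their sum was 847 to 968 CPM in WT against 939 to 959 CPM in Dp1Tyb, with 6 higher, 2 lower and none called. Within that sum Prox1 and Neurod2 had log2 differences of -0.18 ± 0.057 and -0.31 ± 0.11, and Neurod6 one of 0.15 ± 0.048 (edgeR adjusted p = 0.184, 0.209 and 0.176). With the neuronal marker level as a covariate, added after the data were seen, the median of the partners was -0.03 in place of 0.11 and the Napb difference was 0.09 ± 0.081. That covariate was the mean over the 8 markers of log2 CPM, each centred on its own mean. The markers thus weighed equally in it, unlike in the sum above. The Napb standard error was 0.039 without the covariate. The marker sums of 4 Dp1Tyb libraries lay above all those of WT, and the covariate itself was not compared between the groups.

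The remaining marker lists are given as sums and counts. The sum of 6 astrocyte markers was 1908 to 2245 CPM in WT against 2128 to 2283 CPM in Dp1Tyb. Of the 6 markers, 4 were higher, 2 lower and 1 called, Gfap, which was higher. Over all tested genes, 48.7% were higher, 0.870% were called higher and 0.238% were called lower. Oligodendrocyte markers summed to 4153 to 5290 CPM and 4084 to 5558 CPM, microglial markers to 209 to 240 CPM and 173 to 227 CPM, endothelial markers to 206 to 226 CPM and 198 to 207 CPM, and thalamic markers to 93.0 to 107 CPM and 88.3 to 100.3 CPM, in WT and Dp1Tyb respectively. Of these lists, 5 of 6 oligodendrocyte markers were higher, and 4 of 6 microglial, 5 of 6 endothelial and 5 of 6 thalamic markers were lower, none called. Choroid plexus markers, from a tissue that borders the hippocampus, ranged from 429 to 5427 CPM in WT and from 36.2 to 3888 CPM in Dp1Tyb; all 7 were lower in Dp1Tyb with none called, and Dp1Tyb 1 and 4 stood apart with 36.2 and 44.2 CPM. Without those libraries the Napb difference was 0.17 ± 0.043, the partners' median was 0.08, and neither Vamp1 (edgeR adjusted p = 0.0962) nor Cadps2 (edgeR adjusted p = 0.0920) was called.

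**Figure D4:**
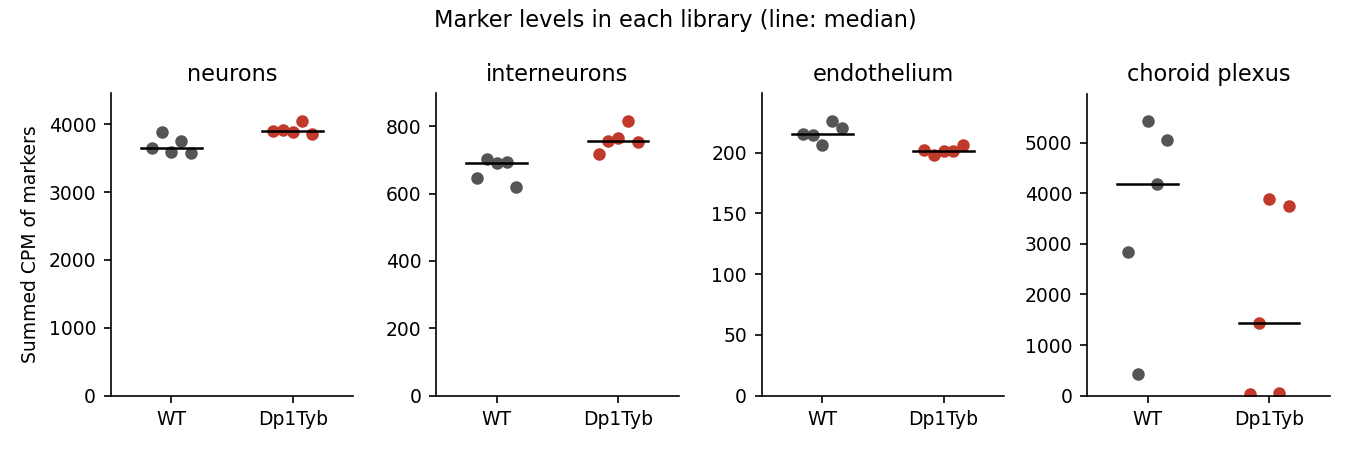
Summed CPM (vertical axes, from 0) of markers of neurons, interneurons, endothelium and choroid plexus in each WT (grey) and Dp1Tyb (red) library, with the group median as a line. Interneuron sums, in which Gad1 and Gad2 weigh most, do not overlap between the genotypes, and the choroid plexus sums of Dp1Tyb 1 and 4 lie near 0.

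Since the study asked about domains along chromosomes, the genes around Napb on chromosome 2 were examined. Within 5 Mb of the start of Napb, 100 other genes were tested, of which 48 were higher and 52 lower in Dp1Tyb, with a median log2 difference of -0.0067. At an unadjusted p under 0.05, 5 were higher and 8 lower, against 7.97% and 6.40% of all tested genes. The nearest tested neighbours were Gzf1, a zinc finger gene whose mean was 47.2 ± 2.27 CPM in WT against 48.8 ± 2.22 CPM in Dp1Tyb (SD, n = 5; adjusted p = 0.661, edgeR), and Cstl1, a cystatin relative at 0.425 ± 0.180 and 0.524 ± 0.126 CPM (adjusted p = 0.686, edgeR).

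Only Slc24a3, a potassium-dependent sodium and calcium exchanger, was called in this window, 1 of 100 genes against 1.11% of all tested genes. It rose from 210 ± 3.43 to 234 ± 2.13 CPM (SD, n = 5), a log2 difference of 0.16 ± 0.028 with an edgeR adjusted p of 0.0117, and it passed in all 10 fits that left out 1 library. Without Dp1Tyb 1 and 4 together its edgeR adjusted p was 0.0568. Over the whole of chromosome 2, 12 of 1402 tested genes were called. Among them, the coat-colour gene a, at 6.10 Mb from Napb and so outside the window, had 0 to 2 reads in WT libraries and 103 to 254 reads in Dp1Tyb libraries. It was singled out after its values were seen; the count table carries no allele information, and whether the groups differ in strain of origin around Napb was not tested.

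**Figure D5:**
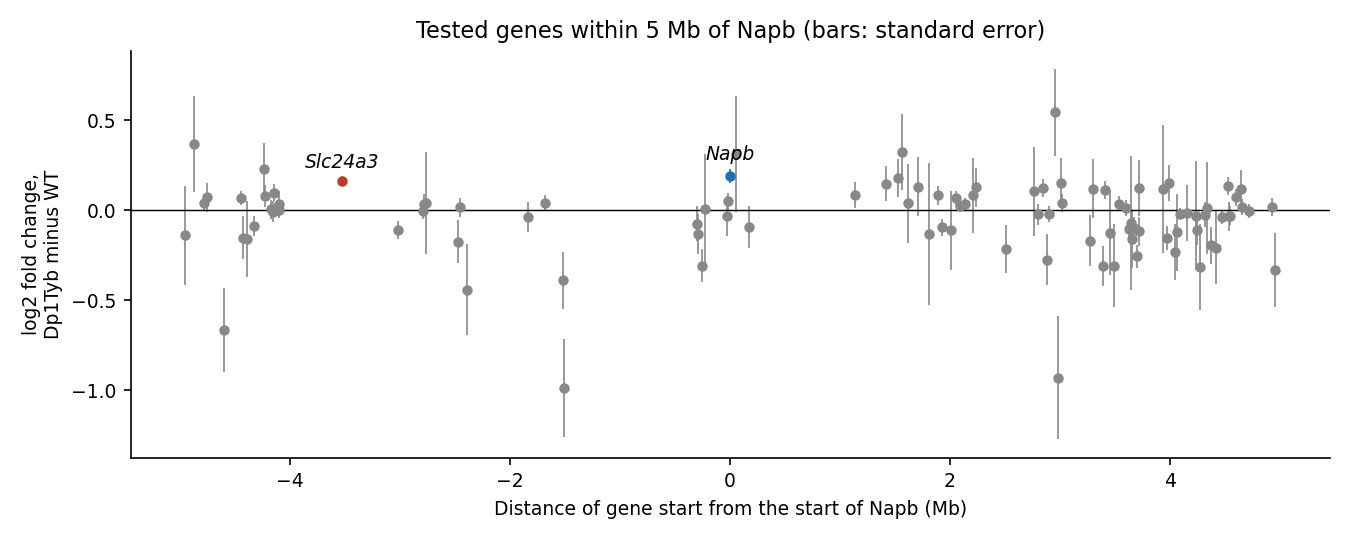
Log2 fold change, Dp1Tyb minus WT, with its standard error (vertical axis) against distance in Mb of the gene start from the start of Napb (horizontal axis), for Napb (blue) and the 100 tested genes around it. Slc24a3 (red) is the gene called by edgeR, and the others scatter on both sides of 0.

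Finally, the pattern of Napb over the 10 libraries was compared with that of each of the other 17236 tested genes, as the root-mean-square difference of log2(CPM + 0.5) after centring each gene on its own mean. The nearest 5 genes were Atl1 (0.031), Scg5 (0.032), Rnf14 (0.035), Cdh11 (0.035) and Got1 (0.035), which encode a GTPase that shapes the endoplasmic reticulum, a secretory granule protein, a ubiquitin ligase, a cadherin and an aspartate aminotransferase. Of the 7 partners, Nsf was the most like Napb, at 0.056 and rank 153, followed by Syt1 at 0.060 and rank 218 and Vamp2 at 0.068 and rank 393. Snap25 followed at rank 654 and Stx1a at rank 1247. Napa at rank 2616 and Cplx1 at rank 2911 lay at 0.104 and 0.107, close to the 0.106 of a profile with no variation at all. These distances share the genotype contrast on which Napb was chosen and the libraries themselves, and are a description without a test.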

How the data were processed

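RNA of 10 hippocampi was sequenced, 1 library per mouse. The authors deposited raw counts of reads per Ensembl gene, and these counts were used. Per the submitters' processing notes, reads were trimmed with Trim Galore, aligned to GRCm38 with TopHat2 2.0.12 and counted with HTSeq. Reads aligning to several places were discarded, which lowers genes with near-identical copies. The strand setting and annotation release of the count are not given in the sources used here. The deposited counts divided by size factors and the authors' DESeq2 1.6.3 comparison (means, fold changes, errors and p-values) were not used.

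Symbols, coordinates and exon lengths came from GENCODE M21 (42548 of 43629 genes matched) and promoters from RefSeq. Counts were filtered (filterByExpr), TMM-scaled and tested by edgeR 4.0.16 (quasi-likelihood, R 4.3.3) between genotypes with no covariate, with Benjamini-Hochberg adjustment over 17237 genes and a threshold of 0.05. Adjusted p-values printed with n = 5 come from this fit across all genes. Tested on simulated data for this comparison, edgeR recovered 74.5% of 200 genes changed 1.5-fold among 17237, and 6.88% of its calls were false. DESeq2 1.42.0, other size factors, no filter, a replicate block, leaving out each library and, after seeing the data, 2 marker covariates and leaving out Dp1Tyb 1 and 4 were alternatives. Paralogue ratios were tested by exact permutation.

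Named were all 8 members, called genes of the lists, the 3 most abundant of each list, the 5 genes most like Napb, called genes within 5 Mb and the nearest neighbour on each side, and 4 paralogue pairs; some of these are not reported here. Members and lists were chosen with earlier results of these data known. No 2 libraries of a group were within sampling noise of each other (lowest chi-square per degree of freedom 4.68). Whether the replicate numbers in the labels pair the samples was not settled. Same-numbered WT and Dp1Tyb libraries correlated over 0.1 in 3 of 5 pairs. The main fit took the samples as unpaired, and a replicate block was an alternative.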

Additional observations from a re-analysis of the deposited data

Results flagged for a closer look

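A sample far from the rest of its group was looked for in 26 groups of 5 libraries, of which chance would mark about 1 in 20, or 1.3 groups, and 2 were marked. Napa lay at 243 CPM in Dp1Tyb 1, while the other Dp1Tyb libraries lay between 225 and 227 CPM, so the gap took 0.889 of the range of the group. Cplx1 lay at 455 CPM in WT 5, below the 487 to 497 CPM of the other WT libraries, a gap of 0.756 of the range.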

How the results depend on the processing

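The 191 genes called over all tested genes became 507 with DESeq2, 315 with a replicate block, 28 with the neuronal marker covariate, 120 without Dp1Tyb 1 and 4, and 105 to 218 when each library was left out. Called partners were 0 in each of those fits except DESeq2, with 1 (Nsf). The 2 release genes called higher became 9 with DESeq2 (Nsf, Vamp1, Snap47, Cadps2, Syt6, Syt11, Syn2, Syngr1 and Scamp5), 0 with the choroid plexus covariate, the neuronal covariate or without Dp1Tyb 1 and 4, and 0 to 2 when each library was left out; none was called lower in any alternative. The 1 gene called near Napb became 2 with DESeq2, 0 with either covariate or without Dp1Tyb 1 and 4, and 1 to 2 when each library was left out.

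Cplx1 turned to 0.0022, 0.0024 and 0.013 without WT 2, WT 3 or Dp1Tyb 3. With the neuronal covariate, Napa turned to -0.023, Snap25 to -0.047, Stx1a to -0.061 and Syt1 to -0.026. Leaving out each library, Vamp1/Vamp2 ran from 0.064 to 0.13, Cplx2/Cplx1 from 0.065 to 0.13 and Snap23/Snap25 from -0.32 to -0.23. Under the replicate block Snap23/Snap25 kept its -0.27 with an exact permutation adjusted p = 0.125, where 5 pairs allow no unadjusted p below 0.0625. Same-numbered libraries correlated at -0.060 to 0.34, and 2 of 5 correlated best with their own number. The causes of these changes were not tested. Changes smaller than the simulated 1.5-fold were not simulated, so the power for differences of the size seen here is not known, and a missed threshold does not show equal levels.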
